A study of Drosophila melanogaster with 11 samples.

Results

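Small nucleolar RNAs (snoRNAs) and the related small Cajal body RNAs (scaRNAs) were examined in total RNA sequencing libraries of early Drosophila melanogaster embryos and eggs. The genes were chosen by name and by abundance: the FlyBase symbol started with snoRNA: or scaRNA:, and the gene had a mean of at least 10 counts over the 7 stage 5 libraries. Of 17753 genes in the deposited count table, 258 carried such a symbol and 116 passed the minimum, 108 snoRNA genes and 8 of 15 scaRNA genes. The libraries came from 3 groups. Ctrl embryos at stage 5 (3 libraries, replicates 2, 3 and 4) descended from mothers of the TRiP control line, and DomKD embryos at stage 5 (4 libraries) from mothers expressing a Domino shRNA under a germline Gal4 driver (mat-alpha-Gal4), so that the knockdown acted on what the mother's germline made. Ctrl unfertilized eggs (4 libraries) carried the control genotype and hold what the mother deposited. In the sample labels the control genotype is t180 and the knockdown genotype t216. Every library was a pool of eggs or embryos, and fewer cells of a type and less RNA per cell cannot be told apart in such samples. Nothing in the labels says that replicates came from separate crosses, so p-values measure the spread between these libraries only.

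snoRNAs are short, stable non-coding RNAs that guide chemical modification of ribosomal RNA in the nucleolus. C/D box snoRNAs direct 2′-O-methylation by the methyltransferase Fibrillarin, and H/ACA box snoRNAs direct pseudouridylation by the synthase dyskerin, called Nop60B in the fly. scaRNAs guide the same reactions on spliceosomal RNAs in Cajal bodies, and the U3 snoRNA acts in cleavage of the ribosomal RNA precursor instead of in its modification. Most snoRNAs of flies lie in introns of other genes and are trimmed out of the spliced intron, so that one transcript gives both an mRNA and its snoRNAs. The names used here give the class and the target: Psi28S-3571 is an H/ACA RNA for a pseudouridine of 28S rRNA, Me18S-C1968 a C/D RNA for a methylated C of 18S rRNA, and MeU5-C46 a scaRNA for the U5 snRNA. No snoRNA sequence is printed.

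Library totals lay between 11809453 and 17700171 counts, and the 116 genes took from 0.171% to 0.289% of them. The targeted gene dom, which encodes the ATPase of the complex that places H2A.Z, was low in every library labelled DomKD. Levels are in CPM, the counts of a gene per 1000000 counts of its library. dom was at 1921 ± 64.5 CPM (mean ± SD, n = 3) in Ctrl and at 76.9 ± 21.4 CPM (n = 4) in DomKD, or 4.00% of the Ctrl mean, and at 1367 ± 59.3 CPM (n = 4) in eggs. CPM values were scaled by edgeR's TMM factors over all 11 libraries, and sums over genes are given as CPM of library total, without that scaling. The 10 zygotic marker genes summed to between 150.4 and 174 CPM of library total in the eggs, and to between 2851 and 5354 in the embryos. Ctrl replicate 2 was lowest of the embryo libraries in these zygotic genes and, at 5376, highest in the 6 maternal marker genes, for which the other Ctrl libraries gave 4586 and 3942 and the DomKD libraries 3977 to 5205. The part of this difference in the results was not tested. Of 8 follicle cell and chorion genes none passed 10 counts in any library, and of 8 genes of later embryonic tissues 1 did, at 12 counts.

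The 116 genes were mostly H/ACA RNAs, the longer of both classes. By name, 79 of 111 listed H/ACA genes passed the minimum, against 10 of 91 C/D genes, 19 of 41 genes with no class in the name and 8 of 15 scaRNA genes. Of the listed genes shorter than 100 nt, 7 of 98 passed, and 80 of the 91 C/D genes but none of the 111 H/ACA genes were that short. Of the listed genes of at least 130 and under 200 nt, 98 of 137 passed, and so did all 6 of at least 200 nt. Among the 142 genes under the minimum, 20 had no count in any library and 105 had at most 10 counts in each library. Just inside the minimum were Psi28S-3305b and Psi28S-3316c, each with a mean of 10.7 counts, and just outside were Psi18S-841b with 9.86 and Me28S-A771 with 9.57. The median over the members was 48.3 counts per stage 5 library, and 45 of the 116 had a mean under 30 counts.

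A small number of genes made up much of the signal. The 5 with the highest CPM held 48.5% of the members' stage 5 counts. Psi28S-291, in an intron of the ribosomal protein gene RpL3 on arm 3R, reached 275, 400.3 and 365 CPM in Ctrl replicates 2, 3 and 4, 381, 328, 366 and 339 CPM in DomKD replicates 1 to 4, and 309.8, 360.4, 260.3 and 236 CPM in egg replicates 1 to 4. Psi28S-2566, in an intron of CG3902 on arm 3L, lay between 277 and 364 CPM in Ctrl, between 286 and 369.6 CPM in DomKD and between 212 and 305 CPM in eggs. The groups of embryos overlapped for both of these abundant RNAs, and their log2 fold changes in DomKD were 0.02 ± 0.12 (SE) and 0.08 ± 0.11, neither called. Scaled to length, Psi28S-291 stood at 1593 CPM per kb over the stage 5 libraries, Psi28S-2566 at 1241, the U3 copy U3:9B at 944, Psi18S-176 at 644 and Tudor-SN-a, in an intron of the nuclease gene Tudor-SN, at 345.

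**Figure D1:**
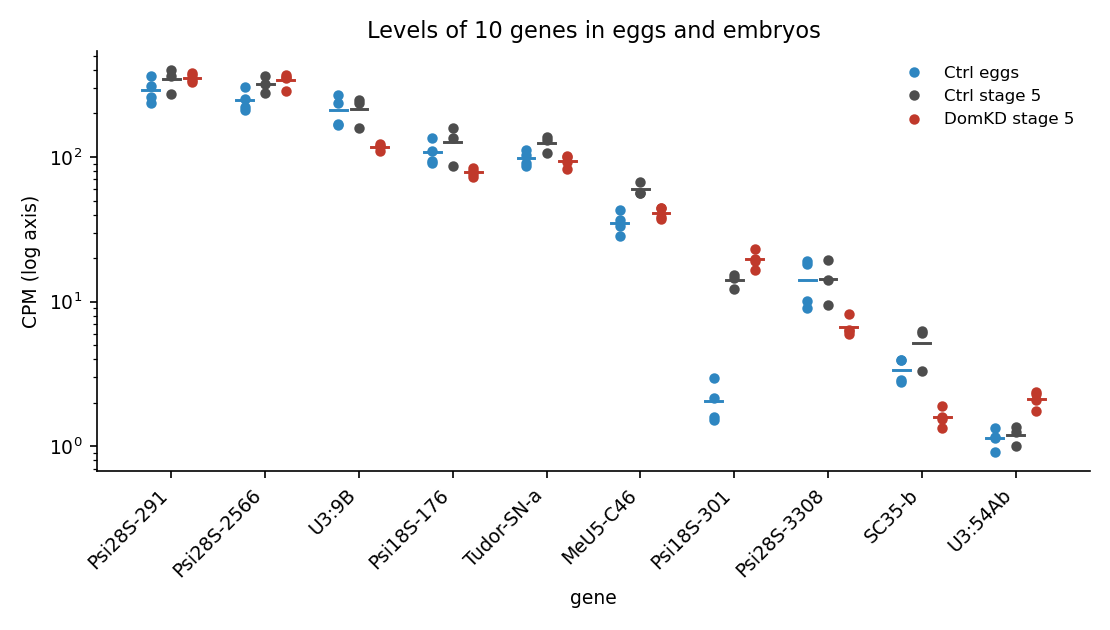
CPM on a log axis of 10 snoRNA and scaRNA genes in the single libraries of Ctrl eggs (blue, 4), Ctrl stage 5 embryos (grey, 3) and DomKD stage 5 embryos (red, 4), with a bar at each group mean. Psi28S-291 and Psi28S-2566 overlap between the embryo groups, U3:9B lies lower in the 4 DomKD libraries, and Psi18S-301 lies higher in all 7 embryo libraries than in the 4 egg libraries.

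The single Ctrl libraries differed from each other, and this sets what can be read from the comparison with DomKD. Relative to the mean log2 CPM of the 3 Ctrl libraries, the median over the 116 genes was −0.44 in Ctrl replicate 2, 0.34 in replicate 3 and 0.11 in replicate 4. The 4 DomKD libraries lay closer together, at −0.64, −0.69, −0.48 and −0.60. Summed over the members, Ctrl replicate 2 gave 1943 CPM of library total, close to the 1714 to 1938 of the DomKD libraries, while Ctrl replicates 3 and 4 gave 2893 and 2616. Replicate 2 was the lowest Ctrl library for 108 of the 116 genes and replicate 3 the highest for 93. Ctrl replicate 3 exceeded every DomKD library for 109 genes and replicate 4 for 98, but replicate 2 for only 45.

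Against each Ctrl library alone, the 4 DomKD libraries had medians from −0.85 to −1.03 (replicate 3), from −0.57 to −0.79 (replicate 4) and from −0.05 to −0.24 (replicate 2). On average over the DomKD libraries, 111 genes lay under replicate 3, 110 under replicate 4 and 80 under replicate 2. The direction of the median was therefore the same against each Ctrl library, but its size against replicate 2 was small beside the gap of that library from the other Ctrl libraries.

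The same order of libraries appeared in other short RNAs. The 24 other genes of at least 100 and under 200 nt exon length that were tested, 21 of them snRNA genes, had medians of −0.52, 0.42 and 0.09 in Ctrl replicates 2, 3 and 4 and between −0.45 and −0.78 in DomKD. For these genes, the DomKD libraries differed from Ctrl replicate 2 alone by medians of −0.13 to 0.05. Single genes of the class could differ from this. snRNA:U2:34ABa (192 nt) stood at 217, 304 and 313 CPM of library total in Ctrl replicates 2, 3 and 4 and at 3.00 to 6.21 in DomKD. For the 54 other genes of at least 200 and under 400 nt, the medians were −0.18, 0.14 and 0.03 in Ctrl and between −0.08 and 0.05 in DomKD, and for the 7521 genes of 400 nt and more every library stayed within 0.02 of the Ctrl mean. 7SLRNA:CR32864 is a 299 nt RNA of the signal recognition particle. It stood at 4.17, 42.33 and 34.96 CPM of library total in Ctrl replicates 2, 3 and 4. In DomKD it was at 4.06 to 8.31 and in eggs at 24.6 to 26.9. RNaseP:RNA, also of 299 nt, gave 760, 893 and 802 in Ctrl replicates 2, 3 and 4 and 677 to 728 in DomKD. RNaseMRP:RNA, the 382 nt RNA of an enzyme that cleaves the rRNA precursor, gave 2716, 2814 and 2647 in Ctrl and 2211 to 2468 in DomKD. What part this level of short RNAs in each library has in the lower snoRNA counts was not tested.

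**Figure D2:**
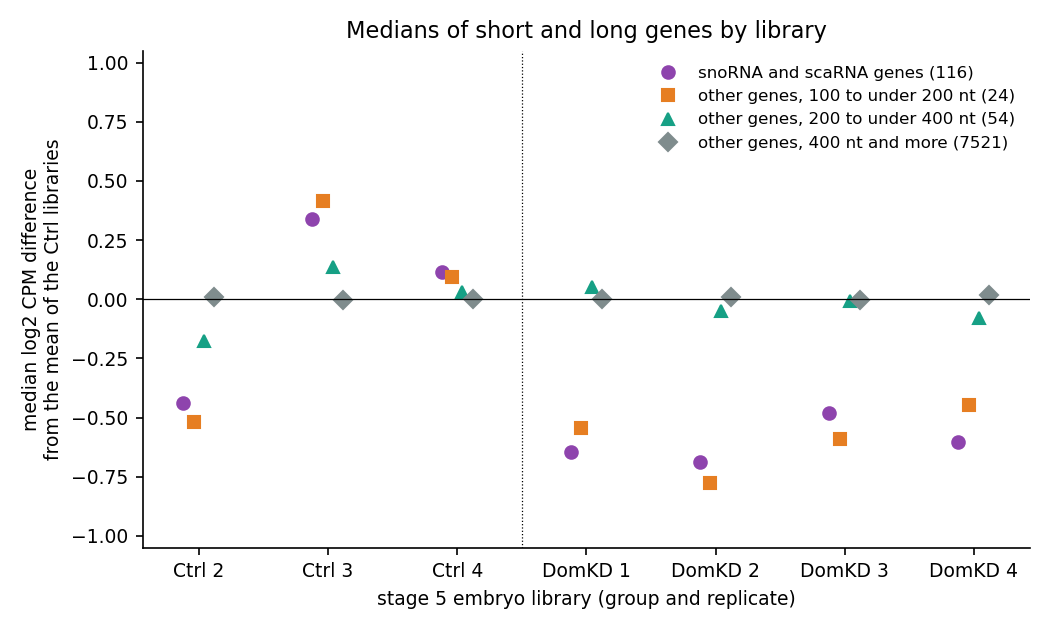
Median difference in log2 CPM from the mean of the 3 Ctrl libraries, for each stage 5 library, over the snoRNA and scaRNA genes (circles), other genes of 100 to under 200 nt (squares), of 200 to under 400 nt (triangles) and of 400 nt and more (diamonds). Ctrl replicate 2 lies at −0.44 for the snoRNA and scaRNA genes, nearer to the DomKD libraries than to Ctrl replicates 3 and 4, and the squares follow the circles.

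With all 7 libraries, the members were lower in DomKD more often than higher. In edgeR's quasi-likelihood test, adjusted by the Benjamini-Hochberg method over 7727 genes, 44 of the 116 were lower at an adjusted p under 0.05 and 2 were higher. Over all tested genes 15.5% were lower and 10.6% higher, against 37.9% and 1.72% of the members. The log2 fold change was negative for 108 members, and its median was −0.73, with quartiles of −1.07 and −0.42, while the median over all tested genes was 0.00. The called decreases ran from −0.43 to −2.46, and 25 were at least 2-fold. The count minimum acts on these numbers: every member averaged 10 counts or more in Ctrl, but 13 averaged less in DomKD and passed only through Ctrl, 9 of them called lower. Of the 103 members that reached 10 counts in both groups, 35 were lower. Without regard to the model, 42 members (36.2%) had every DomKD library under every Ctrl library, against 18.7% of all tested genes, and 2 had every DomKD library above, against 16.5%.

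The count depended on the Ctrl libraries. It was 77 without Ctrl replicate 2 (all genes 13.1% lower), 15 without replicate 3 (12.9%) and 18 without replicate 4 (10.4%), and between 24 and 39 without one of the DomKD libraries. The 7 fits that each left out 1 library had 14 lower genes in common: U3:9B, the scaRNAs MeU2-48 and MeU5-C46, Psi28S-3571, Psi28S-3385a and Psi28S-3091b of host kra, Psi28S-2626 and Psi18S-1377e of host RpS7, Psi28S-3308 and Psi18S-1086 of host Sf3b3, Psi28S-1175a, Psi18S-1347b, Me28S-G2703a and SC35-b. Of these, Psi28S-1175a (2 to 11 counts in DomKD) and Psi18S-1347b (4 to 12) reached the minimum only through Ctrl, so their calls are no support for a decrease. With size factors taken from the 24 other short genes, a scaling chosen after seeing the data, the median over members was −0.06. That of all genes was 0.58. Then 2 members were lower, Psi28S-3316c and Me18S-A1576. Both reached the minimum only through Ctrl (2 to 4 and 4 to 6 counts in DomKD), so their calls are no support for a decrease. Psi18S-301 and U3:54Ab were higher under this scaling. All genes were then lower in 2.77% and higher in 13.9%.

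**Figure D3:**
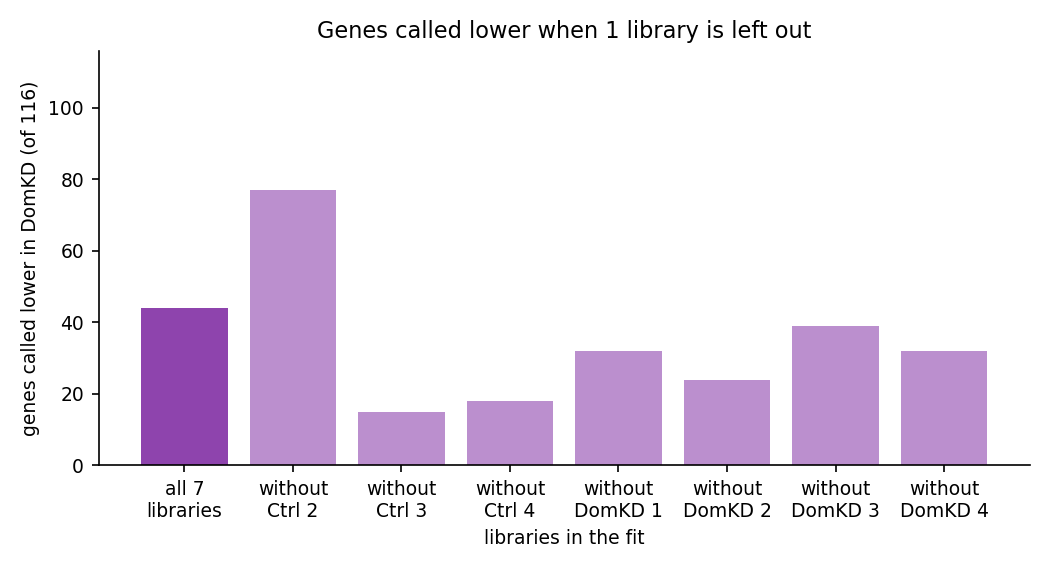
Number of the 116 snoRNA and scaRNA genes called lower in DomKD than in Ctrl (edgeR, adjusted p under 0.05) with all 7 stage 5 libraries and after removal of 1 library at a time. The count of 44 rose to 77 without Ctrl replicate 2 and dropped to 15 without Ctrl replicate 3.

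The decrease was larger for weakly covered genes. The 45 members with a mean of 10 to 30 counts lay at a median of −1.07 on the log2 scale, the 33 with 30 to 100 counts at −0.73, the 20 with 100 to 300 counts at −0.39 and the 18 with at least 300 counts at −0.43. Other genes of the same count levels had medians of −0.42, −0.30, −0.08 and 0.04. All 13 members that passed the count minimum only through Ctrl, 9 of them called lower, were in the lowest level. The larger decrease there is therefore partly set by the count minimum. Of the 18 best covered members 9 were lower, against 7.91% of the 4780 other genes at that level. By class the medians were −0.72 for the 79 H/ACA genes (28 lower, 1 higher), −0.67 for the 10 C/D genes (5 lower, 1 higher), −0.82 for the 19 genes with no class in the name (6 lower) and −0.76 for the 8 scaRNAs (5 lower). The 6 members of at least 200 nt lay between −0.55 and 0.08, with a median of −0.36.

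The largest called decreases among members with a mean of at least 50 counts were in Psi28S-3571, Me18S-C1968, snoRNA:2R:9445205, Psi28S-2626 and Psi28S-3308. Psi28S-3571, in an intron of kra, a regulator of translation, was at 7.54, 17.8 and 13.4 CPM in Ctrl replicates 2, 3 and 4 and at 5.50, 3.89, 5.41 and 6.41 CPM in DomKD replicates 1 to 4. Its groups did not overlap, and the log2 fold change was −1.29 ± 0.28 (SE, adjusted p = 0.0087 in edgeR). Psi28S-2626, in an intron of the ribosomal protein gene RpS7, had 5.46, 8.31 and 8.79 CPM in Ctrl and 3.08, 3.43, 3.73 and 3.24 CPM in DomKD, a change of −1.16 ± 0.20 (adjusted p = 0.0030 in edgeR). In Psi28S-3308, from the splicing factor gene Sf3b3, Ctrl gave 9.43, 19.4 and 14.2 CPM and DomKD 6.41, 5.998, 8.17 and 6.26 CPM (−1.11 ± 0.23, adjusted p = 0.0076 in edgeR). Ctrl replicate 2 was the lowest Ctrl value in each of these 3 genes and still above every DomKD library.

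Me18S-C1968, a C/D RNA, had 6.35, 11.5 and 9.33 CPM in Ctrl and 2.42, 4.68, 3.64 and 5.23 CPM in DomKD (−1.17 ± 0.28, adjusted p = 0.013 in edgeR). The gene snoRNA:2R:9445205 had 2.67, 7.91 and 6.04 CPM in Ctrl and 2.58, 2.77, 2.31 and 2.21 CPM in DomKD. Here the groups overlapped through Ctrl replicate 2, although the test gave −1.16 ± 0.33 (adjusted p = 0.028 in edgeR), and the call was lost without some of the libraries.

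The U3 copies moved in different directions. U3:9B, on the X chromosome, was the most abundant copy at 158, 246 and 235 CPM in Ctrl replicates 2, 3 and 4 and 118, 109.7, 119.8 and 124 CPM in DomKD. All 4 DomKD values lay close together and under the lowest Ctrl value, and the change was −0.86 ± 0.13 (adjusted p = 0.0018 in edgeR). U3:54Ab had 1.01, 1.35 and 1.26 CPM in Ctrl and 2.08, 2.37, 2.31 and 1.77 CPM in DomKD (0.82 ± 0.24, adjusted p = 0.031 in edgeR), with the groups apart in the other direction. U3:54Aa lay between 2.43 and 3.77 CPM in Ctrl and between 3.03 and 4.42 CPM in DomKD (0.16 ± 0.22, adjusted p = 0.62 in edgeR). The copies are near-identical, and how reads that fit several of them were counted is not given in the sources used here, so the split between copies is uncertain.

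Only 2 members were higher in DomKD, U3:54Ab and Psi18S-301. Psi18S-301, an H/ACA RNA with no host gene, lies on arm 3R from 20574906 to 20575043 (plus strand, dm6). It was at 12.3, 15.2 and 14.7 CPM in Ctrl and 23.2, 19.7, 19.2 and 16.5 CPM in DomKD (0.47 ± 0.14, adjusted p = 0.033 in edgeR). Every DomKD value lay above every Ctrl value. Both calls were lost when Ctrl replicate 2 was left out (adjusted p = 0.103 for Psi18S-301 and 0.105 for U3:54Ab in edgeR). With size factors from the other short genes, both stayed called, at 1.10 for Psi18S-301 and 1.46 for U3:54Ab (adjusted p = 0.024 and 0.017 in edgeR).

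Among the other abundant members, Psi18S-176, which has no host, had 86.6, 159 and 135 CPM in Ctrl and 76.3, 73.1, 83.5 and 80.3 CPM in DomKD (−0.71 ± 0.17, adjusted p = 0.014 in edgeR). Ctrl replicate 2 was only just above the highest DomKD library. Tudor-SN-a had 106, 138 and 132 CPM in Ctrl and 99.5, 82.2, 92.0 and 101 CPM in DomKD (−0.43 ± 0.11, adjusted p = 0.016 in edgeR). Both groups were apart for this 311 nt RNA as well, by a smaller step.

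Of the 8 scaRNAs 5 were lower in DomKD, and none was higher, where 15.5% of all tested genes were lower and 10.6% higher. The 24 other genes of 100 to under 200 nt had 9 lower and 0 higher, with a median of −0.64. MeU5-C46, the longest member at 316 nt, guides methylation of U5 by its name. It was at 56.1, 67.4 and 56.2 CPM in Ctrl and 44.4, 37.2, 44.6 and 38.4 CPM in DomKD, a change of −0.55 ± 0.10 (adjusted p = 0.0043 in edgeR), and its host CG1142 was also lower (−0.32, adjusted p = 0.022). MeU2-48, in an intron of the splicing factor gene hfp, had 2.20, 3.04 and 2.27 CPM in Ctrl and 0.81 to 1.25 CPM in DomKD (−1.32 ± 0.26, adjusted p = 0.0053 in edgeR). PsiU5-44, in tra2, a splicing regulator of sex determination, changed by −1.18 ± 0.33 and PsiU1-6, in the cohesin regulator gene dmt, by −1.06 ± 0.32, with adjusted p of 0.027 and 0.034 in edgeR. PsiU2-55 of host Prp8, a core protein of the spliceosome, was called at −0.73 ± 0.24 with overlapping groups (adjusted p = 0.047 in edgeR). The remaining 3 scaRNAs, MeU5-U42, MeU2-C41 and PsiU2-38.40.42, had changes of −0.78, −0.57 and −0.17 and did not pass the test.

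Of the 116 genes 105 lay inside a longer gene on the same strand, their host, and 11 had none. There were 49 hosts, 32 with 1 member and 17 with 2 to 12 members. None of the 116 overlapped an exon of another gene on its own strand, so the members with a host were intronic. On the other strand 3 members (CG31191-a, Or-aca4 and Or-CD2) overlapped an exon. The counts of an intronic gene can hold reads of the unspliced host transcript, which the table does not separate. Among the hosts, 13 ribosomal protein genes held 36 members, and 4 non-coding snoRNA host genes (Uhg) held 6.

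Most members had a lower log2 fold change in DomKD than their hosts. Of 47 tested hosts 9 were lower and 10 higher, and their median log2 fold change was 0.08. Over all tested genes 15.5% were lower and 10.6% higher. Of 39 members that were lower and had a tested host, the host was also lower for 8, higher for 9 and not called for 22. The member's log2 fold change was under that of its host in 88 of 103 pairs. Across these pairs, which share libraries and often a host, Pearson's r was 0.17 and Spearman's rho 0.19, and without the 10 pairs of dom they were 0.23 and 0.17. Among the 13 ribosomal protein hosts, 6 were higher and none lower, with changes between 0.07 and 0.51, while the 36 members in their introns had a median of −0.65 and 10 of them were lower. Outside the members, the median log2 fold change was −0.64 for the 24 genes of 100 to under 200 nt. It was 0.01 for the 7521 genes of 400 nt and more. What part this difference by length has in the gap between members and hosts was not tested.

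**Figure D4:**
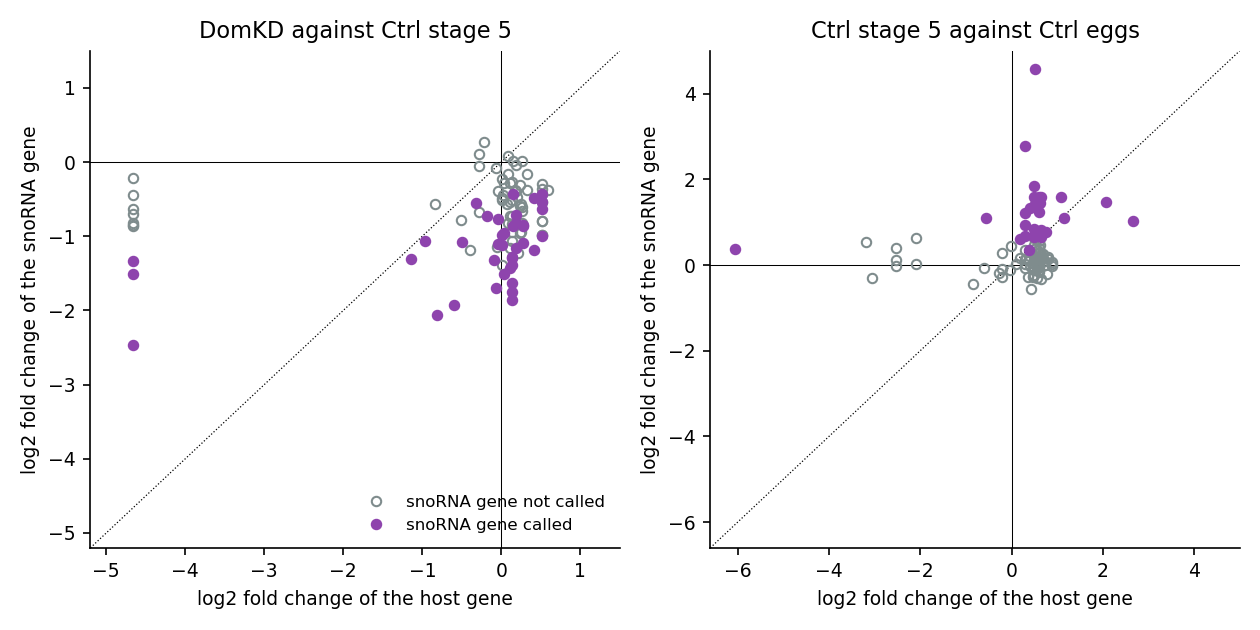
Log2 fold change of each intronic snoRNA or scaRNA gene against that of its host gene, in DomKD against Ctrl stage 5 embryos (left) and in Ctrl stage 5 embryos against Ctrl eggs (right). Filled points passed the test, the dotted line marks equal change, and the column of points at −4.66 in the left panel is dom.

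dom, the gene targeted by the knockdown, is itself a snoRNA host with 10 members, at 21323430 to 21341847 on the plus strand of arm 2R. dom RNA was lower by 4.66 on the log2 scale (log2 fold change −4.66 ± 0.18, adjusted p = 1.2e-06 in edgeR), whereas its members lay at −0.22 to −2.46. Summed, the 10 snoRNAs stood at 24.5, 43.5 and 34.8 CPM of library total in Ctrl replicates 2, 3 and 4, at 19.9, 18.6, 24.8 and 23.1 in DomKD and at 17.8 to 33.6 in eggs. The DomKD mean was 63.0% of the Ctrl mean, beside 4.00% for dom itself, and the groups overlapped through Ctrl replicate 2. Psi28S-3378, the most abundant of them, was at 6.88, 11.4 and 8.39 CPM in Ctrl and 7.41, 6.85, 7.72 and 8.69 CPM in DomKD (−0.22 ± 0.19, adjusted p = 0.42 in edgeR). Per 1000 dom counts, Psi28S-3378 had 3.47, 6.12 and 4.36 counts in Ctrl and 110, 90.0, 72.4 and 152 in DomKD. The ratio did not overlap between the groups for any of the 10, with fold differences from 4.81 (Psi28S-3316c) to 22.6 (Psi28S-3378). The two-sided exact permutation p was 0.0571 for each, which is the smallest that 3 against 4 libraries can give. The denominator is dom, the target of the knockdown, so the ratio had to rise for any snoRNA that fell less than dom. This separation and its p therefore do not test a change of the snoRNAs.

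Of the 10 members in dom, 3 were lower, all copies of one family, and the other 7 did not pass the test. These 3 reached the minimum of 10 counts only through the Ctrl libraries, where they are high, so their calls are no support for a decrease of the dom members. Psi28S-3316c had 13, 33 and 16 counts in Ctrl and 2, 3, 4 and 4 counts in DomKD (−2.46 ± 0.48, adjusted p = 0.0053 in edgeR). Psi28S-3316d had 13, 25 and 18 counts in Ctrl and 5, 5, 6 and 7 in DomKD, and Psi28S-3316e had 18, 19 and 15 in Ctrl and 9, 5, 6 and 4 in DomKD, with changes of −1.52 ± 0.37 and −1.33 ± 0.35 (adjusted p = 0.015 and 0.021 in edgeR). The copies Psi28S-3316a and Psi28S-3316b of the same family were at −0.82 and −0.86, Psi18S-1389a and Psi18S-1389b at −0.70 and −0.87, and Psi18S-841a and Psi18S-841d at −0.45 and −0.63.

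**Figure D5:**
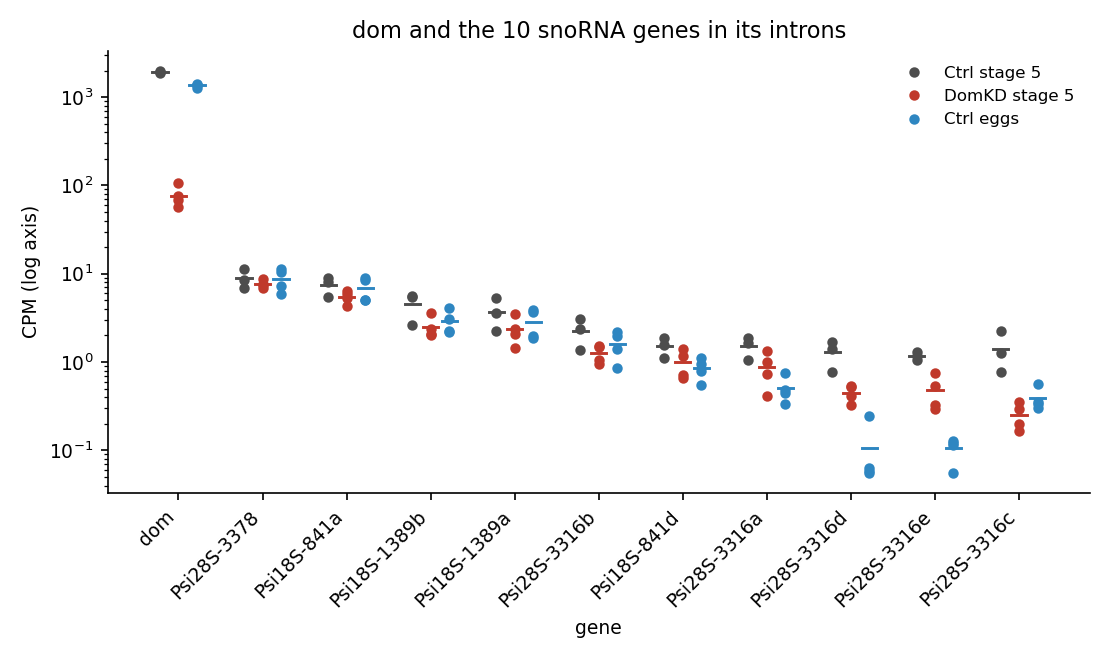
CPM on a log axis of dom and of the 10 snoRNA genes in its introns in the single libraries of Ctrl stage 5 embryos (grey, 3), DomKD stage 5 embryos (red, 4) and Ctrl eggs (blue, 4), with a bar at each group mean. The Ctrl mean of dom is 1921 CPM and the DomKD mean 76.9 CPM, while Psi28S-3378 lies between 6.85 and 11.4 CPM in all 7 embryo libraries.

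RpS5a, a protein of the small ribosomal subunit, held 12 members on the X chromosome (17143588 to 17148264, minus strand). RpS5a RNA itself was higher in DomKD, at 894 ± 82.2 against 624 ± 31.9 CPM (0.51 ± 0.08, adjusted p = 0.0015 in edgeR), and its members lay between −0.29 and −0.996, with 4 lower. The most abundant, Psi18S-1854c, had 43.2, 55.1 and 56.7 CPM in Ctrl and 38.6, 36.4, 39.2 and 39.8 CPM in DomKD (−0.43 ± 0.11, adjusted p = 0.015 in edgeR). Its copies Psi18S-1854a and Psi18S-1854b changed by −0.64 and −0.53 and were called too. Psi28S-1192c was lower, with a log2 fold change of −0.996 ± 0.28 (adjusted p = 0.028 in edgeR), and Psi28S-1192a and Psi28S-1192b, at −0.36 and −0.79, did not pass. None of the 5 Psi28S-1135 copies passed, at −0.29 to −0.99, and Psi28S-2876 was at −0.54 ± 0.18 (adjusted p = 0.056 in edgeR).

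Of the 17 hosts with at least 2 members, 11 had at least 1 lower member and 6 had none, where 15.5% of all tested genes were lower. For dom and RpS16, counted among the 11, every lower member reached the count minimum only through Ctrl, so these hosts are no support for a decrease. The hosts with no lower member were RpL17, RpS4 and Uhg4 with 3 members each and RpL22, Usp10 and lola with 2 each. Their member medians were −0.65, −0.59, −0.06, −0.27, −0.41 and −0.75 beside host changes of 0.27, 0.24, −0.29, 0.32, 0.11 and 0.25. In kra, 5 of 8 members were lower (median −1.29) beside a host change of 0.13, in RpS7 3 of 5 (median −0.72) beside 0.18, and in pAbp, the gene of the poly(A)-binding protein, 2 of 3 (median −0.96) beside 0.04. Psi28S-3385b of kra and Psi18S-1347b of pAbp are among the lower members that reached the count minimum only through Ctrl. The 3 members of CG10576 were all lower, at −0.85 to −1.09, beside a host change of 0.27. In Uhg5 and Uhg2, non-coding genes whose known products are their snoRNAs, host and snoRNA were both lower: −1.15 and −1.31 for Uhg5 and Me28S-G2703a, −0.81 and −2.07 for Uhg2 and Me18S-A1576. Me18S-A1576 reached the count minimum only through Ctrl. Uhg1 itself was not called (−0.49, adjusted p = 0.088 in edgeR), and its snoRNA Me28S-A3407a was lower at −1.08. Neither Uhg4 nor any of its 3 members was called. Of families with at least 2 member copies there were 17, with 49 genes, each family within 1 host, and in all 17 every copy had a negative change.

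The genes for the proteins of snoRNPs, the particles that snoRNAs form, did not follow the RNAs. Of 21 listed protein genes 19 were measured (hoip and Mpp10 were not matched to the table), and 6 were higher and 1 lower in DomKD, with a median log2 fold change of 0.11. Among all tested genes 10.6% were higher and 15.5% lower. What part the difference by gene length given above has in this contrast with the snoRNAs was not tested. The C/D core genes Fib, the methyltransferase, nop5 and Nop56 changed by 0.41 ± 0.07, 0.40 ± 0.08 and 0.28 ± 0.09 (adjusted p = 0.0028, 0.0054 and 0.045 in edgeR). Nop60B, the pseudouridine synthase of the H/ACA particle, went from 549 CPM in Ctrl to 831 in DomKD (0.59 ± 0.06, adjusted p = 0.00031 in edgeR), and the other H/ACA core genes Gar1, Nop10 and NHP2 were at 0.18, 0.07 and 0.11 and did not pass. Nufip and CG10341, assembly factors by homology, were higher by 0.47 and 0.27, and Rrp4, a subunit of the RNA exosome, was the lower gene at −0.52 ± 0.16 (adjusted p = 0.042 in edgeR). pont and rept, the ATPases of snoRNP assembly that are also subunits of the Domino complex, were at −0.21 and −0.09 (adjusted p = 0.068 and 0.32 in edgeR). Fib and Nop60B are hosts as well: the snoRNA 229 in Fib was at −0.49 (adjusted p = 0.041) and the member in Nop60B at −0.38.

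Against unfertilized eggs, a minority of the snoRNA genes was called in Ctrl embryos. The direction of these calls is partly set by the choice of members, because the count minimum was taken over the embryo libraries: a snoRNA high in eggs and low in embryos could not enter, and 7 listed genes outside the members averaged 10 counts or more in eggs. Of the members, 9 averaged fewer than 10 counts in eggs and passed only through the embryos. Among these 9, 2 were not tested and the remaining 7 were all higher in Ctrl embryos, against 22 of the other 107. Of the 116 genes 114 were tested, 29 were higher in embryos and none lower in edgeR (none at an unadjusted p under 0.05 either), while 1 was lower in DESeq2. Over all 7565 tested genes 46.6% were higher and 39.2% lower, against 25.4% and 0% of the members. The median log2 fold change was 0.15, beside 0.14 over all tested genes, with quartiles of −0.01 and 0.62. In 18 members (15.8%) every embryo library was above every egg library, against 46.1% of all tested genes. The library differences noted above bear on this comparison too: relative to the egg mean, the member medians were −0.25, 0.53 and 0.28 in Ctrl replicates 2, 3 and 4, and 0.18, 0.34, −0.20 and −0.32 in egg replicates 1 to 4. The count of higher genes was 40 without Ctrl replicate 2, 14 without replicate 3 and 16 without replicate 4. With all 11 libraries scaled together, the DomKD libraries lay between −0.29 and −0.47 relative to the egg mean, and egg replicates 3 and 4 were at −0.20 and −0.31.

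Some members had few counts in eggs, a pattern that the choice of members lets in while it keeps out the opposite one. Psi18S-301 was at 2.16, 2.97, 1.52 and 1.58 CPM in egg replicates 1 to 4 and at 12.3 to 15.2 CPM in Ctrl embryos (2.77 ± 0.21, adjusted p = 4.7e-07 in edgeR), and no egg value came near an embryo value. Psi18S-1347b, in an intron of pAbp, had 3, 0, 0 and 1 counts in eggs and 25, 24 and 22 counts in Ctrl embryos (4.58 ± 0.57). Psi28S-2442a, in kra, had 0, 5, 4 and 4 counts in eggs and 15, 26 and 19 in Ctrl (2.78 ± 0.52). Psi28S-3316c, in dom, had 9, 6, 6 and 5 counts in eggs, and the copies Psi28S-3316d and Psi28S-3316e, which fell under the count minimum of this comparison, had 1 to 4 and 1 or 2 counts in eggs. The 7 fits that each left out 1 library had 9 higher genes in common: Psi18S-301, Psi28S-1180, Psi28S-1192c, Psi28S-3316a, Psi28S-3091a, MeU5-C46, lola-a and the C/D genes Me28S-A1322 and Me28S-A3407a. Of these, Psi28S-3316a (6 to 13 counts in eggs) reached the minimum only through the embryos, so its call is no support for an increase.

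Among the better covered members, the increases were smaller. After Psi18S-301, the largest called increases with a mean of at least 50 counts were MeU5-C46 (0.77 ± 0.13), SC35-b (0.61 ± 0.25), Psi28S-2566 (0.37 ± 0.13) and Tudor-SN-a (0.36 ± 0.11). MeU5-C46 had 36.8, 42.7, 28.3 and 33.2 CPM in eggs against 56.1, 67.4 and 56.2 CPM in Ctrl, with no overlap. SC35-b had 3.93, 3.96, 2.86 and 2.80 CPM in eggs and 3.32, 6.28 and 6.04 CPM in Ctrl embryos, which overlapped through Ctrl replicate 2, and stood at 1.33 to 1.91 CPM in DomKD. U3:9B was at 236, 269, 168 and 166 CPM in eggs, in the range of the Ctrl embryos (0.02 ± 0.19, adjusted p = 0.91 in edgeR).

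Of the hosts, 6 were at least 4-fold lower in Ctrl embryos than in eggs, CG3902, Irbp, lds, CG10576, dmt and CG12316, and their 8 members lay at −0.30 to 0.62, with none lower and 1 higher. The choice of members partly sets this count: a snoRNA that fell under the minimum in embryos together with its host could not be among the 8. CG3902 RNA went from 153 ± 7.58 CPM (SD, n = 4) in eggs to 2.25 ± 0.59 CPM (n = 3) in Ctrl embryos (−6.06 ± 0.13), while Psi28S-2566 in its intron was at 248 ± 42.2 and 320.1 ± 43.2 CPM. lds RNA, for a DNA-dependent ATPase, went from 432 to 52.0 CPM (−3.05), and its scaRNA MeU2-C41 stood at 2.44 and 1.98 CPM (−0.30 ± 0.29). Irbp, the fly Ku70 gene, changed by −3.20, and Irbp-a in its intron was at 0.53 ± 0.43. At the other end, the non-coding hosts Uhg5 and Uhg1 were higher in embryos by 2.66 and 2.08, and their snoRNAs Me28S-G2703a and Me28S-A3407a by 1.02 and 1.47. Of the 28 higher members with a tested host, the host was higher for 25, lower for 2 and not called for 1, in a comparison in which 32 of 47 hosts were higher and 9 lower. Across the 101 pairs, which share libraries and hosts, Pearson's r was 0.13 and Spearman's rho 0.18.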

How the data were processed

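Total RNA (TruSeq Stranded Total RNA kit) of 11 libraries was measured. The authors ran a snakePipes workflow with trimming, mapping to dm6 and featureCounts over the gene models of Ensembl release 96, and the deposited values are raw whole-number counts. Strand setting and the treatment of reads that fit several genes are not given in the sources used here. 1 value column of the table matched no listed sample and was not used.

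Symbols, hosts and coordinates came from Ensembl release 115 gene models on the same assembly (17626 of 17753 genes had a symbol, and 255 of 258 snoRNA and scaRNA genes the same length). A host was a gene on the same strand whose span held the whole snoRNA gene. The members and lists were chosen with earlier results of these data known. Genes whose mean over the libraries compared reached 10 counts were tested by edgeR 4.0.16 (R 4.3.3, TMM, quasi-likelihood F-test, Benjamini-Hochberg adjustment over all tested genes, 0.05), with SE taken as the log2 fold change over the square root of F. Log2 CPM used a prior count of 2. Exact permutation tests used scipy. Named genes were dom, the 5 largest called changes in each direction at a mean of 50 counts or more, the 5 members with the highest CPM, all scaRNAs, all U3 copies, the members of the 2 hosts with most members, and called protein genes. Other genes named were chosen after their values were seen. The code was tested on simulated data. Alternatives were library size alone, TMM from protein-coding genes, DESeq2 1.42.0, no filter or a mean of 100 counts, all 11 libraries, a replicate block, single libraries left out, single Ctrl libraries, single classes and, chosen after seeing the data, size factors from other short genes.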

Additional observations from a re-analysis of the deposited data

Results flagged for a closer look

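In groups of 4 libraries, a library far from the other 3 was looked for in 90 sets of values (the named members and the members' sum, each in DomKD and in eggs), and 4 were found, where about 1 in 20 would be flagged by chance. The members summed to 1714 CPM of library total in DomKD replicate 2, against 1914 to 1938 in the other DomKD libraries. Psi28S-3316c was at 0.571 CPM (9 counts) in egg replicate 1 and at 0.305 to 0.350 CPM in the other egg libraries. Psi28S-3316d was at 0.244 CPM (4 counts) in egg replicate 4, against 0.0561 to 0.0634 CPM. Psi28S-3316e was at 0.0561 CPM (1 count) in egg replicate 3, against 0.117 to 0.127 CPM.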

How the results depend on the processing

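The median over the members in DomKD against Ctrl stayed negative in all alternatives. It was −0.17 against Ctrl replicate 2 alone, −1.02 against replicate 3 alone, −0.45 with a mean of at least 100 counts and −0.059 with size factors from other short genes, and −0.90 to −0.48 with 1 library left out. The number of members lower was 14 with a mean of at least 100 counts, 2 with the short-gene factors, 15 to 77 with 1 library left out, 5 among C/D and 28 among H/ACA members alone. The number higher was 1 with DESeq2, with library size alone, among C/D and among H/ACA members, 0 with a mean of at least 100 counts and 0 to 2 with 1 library left out. The cause of these shifts was not tested. Replicate numbers did not pair the libraries: deviations of same-numbered DomKD and Ctrl libraries correlated at 0.05, −0.07 and −0.36, and of Ctrl and egg libraries at −0.15, −0.01 and 0.06. Of the Ctrl libraries, 0 correlated best with the DomKD library of their own number and 1 with the egg library. With the replicate block, 26 members were lower and 0 higher, 5 hosts were higher and 0 protein genes lower. Protein genes lower were 2 with all 11 libraries and with library size alone, 0 with no filter and with the short-gene factors, and 0 to 1 with 1 library left out. With the short-gene factors, 1 host was lower and 17 were higher.

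Against eggs, the number of members higher was 4 with a mean of at least 100 counts, 16 with the short-gene factors and 14 to 40 with 1 library left out. The number lower was 1 with DESeq2, 3 with no filter and 0 to 1 with 1 library left out. Their median ranged from 0.00 to 0.35 with 1 library left out.

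Of 685 values of single members under alternatives, 556 kept their direction and side of the threshold, 93 lost and 17 gained a call, and 19 changed sign. With the short-gene factors the log2 fold change in DomKD was 0.19 for Tudor-SN-a, 0.051 for MeU2-C41, 0.051 for MeU5-C46, 0.46 for PsiU2-38.40.42, 0.011 for Psi18S-1854a, 0.10 for Psi18S-1854b, 0.20 for Psi18S-1854c, 0.24 for Psi28S-1135b, 0.38 for Psi28S-1135c, 0.29 for Psi28S-1192a, 0.11 for Psi28S-2876, 0.012 for Psi18S-1389a, 0.22 for Psi18S-841a and 0.44 for Psi28S-3378. Psi28S-291 was at −0.037 with library size alone, −0.015 with a mean of at least 100 counts and −0.13 to 0.13 with 1 library left out, and Psi28S-2566 at −0.012 without Ctrl replicate 2.

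The members had a median of 48.3 counts per stage 5 library, and 45 of 116 had under 30, which limits the precision of single values. Reads of unspliced hosts and of near-identical copies are not separated in the counts.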
